A study of Mus musculus with 4 samples.

Results

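The mouse genes described here are the 3 subunit genes of the epithelial sodium channel (Scnn1a, Scnn1b and Scnn1g), the mineralocorticoid receptor gene Nr3c2, Hsd11b2, Sgk1, the proton pump gene Atp12a and Atp1b1, which encodes the beta 1 subunit of the sodium pump. They were taken by their gene symbols and are 8 of 20791 genes with exon blocks in the reference to which the reads were matched. Small intestine and colon of C57BL/6 mice aged 9 to 10 weeks were frozen as whole tissue and sequenced on the SOLiD platform, and no mouse was treated or carried a transgene. The study's text names the segments as jejunum and distal colon, so the values need not hold for the rest of either organ. Each tissue gave 1 cDNA fragmented library, made by SMART synthesis from polyadenylated RNA, and 1 ribosomal RNA-depleted library, whose reads kept the strand of the RNA. There were thus 4 libraries and no replicate of a tissue within a protocol. The study's text describes a kit that fragments the RNA itself for its stranded libraries. Whether the ribosomal RNA-depleted libraries are these is not known.

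Aldosterone is the steroid hormone that drives sodium uptake in tight epithelia such as the distal colon and the collecting duct of the kidney. It binds the mineralocorticoid receptor, and Hsd11b2 protects that receptor by inactivating glucocorticoids, which bind it as well. The channel lets sodium enter the cell from the lumen, the kinase Sgk1 restrains removal of the channel from the membrane, and the sodium pump, an alpha and a beta subunit, carries the sodium out across the basolateral side. Atp12a is the non-gastric proton and potassium pump of the colonic lumen, a relative of the sodium pump that works with a beta subunit of the same family.

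Promoter sequences were looked up for the 8 genes in the RefSeq table of build GRCm38.p6, which matched 5 of them with 10 start sites in all (6 for Sgk1). Scnn1a, Hsd11b2 and Atp12a had no entry. The 250 bases before a start are printed 5′ to 3′ on the strand of the gene, first for Scnn1g and Scnn1b, neighbouring genes whose ends lie 96.6 kb apart on chromosome 7 of mm9 and which both had at most 1 read in each small intestine library. Capitals mark a TATA box, searched as TATAAA. They also mark a GC box, searched by the letters GGGCGG. The remaining capitals are the 6-base element of the steroid receptors, searched as AGAACA, and all letters were searched on both strands.
Scnn1g, chr7:121734229-121734478, plus strand: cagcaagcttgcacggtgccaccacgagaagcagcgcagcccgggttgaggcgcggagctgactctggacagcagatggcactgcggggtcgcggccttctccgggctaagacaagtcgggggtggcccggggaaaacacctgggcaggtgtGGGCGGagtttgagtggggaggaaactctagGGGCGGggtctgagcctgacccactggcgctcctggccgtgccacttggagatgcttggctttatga
Scnn1b, chr7:121864788-121865037, plus strand: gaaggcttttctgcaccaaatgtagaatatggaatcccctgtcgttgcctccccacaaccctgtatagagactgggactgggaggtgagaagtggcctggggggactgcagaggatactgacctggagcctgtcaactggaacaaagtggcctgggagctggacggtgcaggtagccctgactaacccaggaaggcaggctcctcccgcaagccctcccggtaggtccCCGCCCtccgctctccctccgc
Neither window held the receptor element or a TATA box. Scnn1g had 2 GC boxes, beginning 98 and 67 bases before the start, and Scnn1b had 1, beginning 22 bases before it. Of all 32851 promoter windows of this length, 32.7% held a GC box, 12.4% a TATA box and 16.1% the 6-base receptor element.

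For Sgk1 the 3 starts nearest the shared exons are shown, because its first exons had unlike read counts in the tissues, as described further on.
Sgk1 upstream start, chr10:21991973-21992222, plus strand: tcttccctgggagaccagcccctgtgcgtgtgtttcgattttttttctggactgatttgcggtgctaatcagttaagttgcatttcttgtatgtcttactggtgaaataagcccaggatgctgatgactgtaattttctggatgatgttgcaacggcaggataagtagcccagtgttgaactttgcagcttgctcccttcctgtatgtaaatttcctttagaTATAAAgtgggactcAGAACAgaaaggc
Sgk1 middle start, chr10:21993640-21993889, plus strand: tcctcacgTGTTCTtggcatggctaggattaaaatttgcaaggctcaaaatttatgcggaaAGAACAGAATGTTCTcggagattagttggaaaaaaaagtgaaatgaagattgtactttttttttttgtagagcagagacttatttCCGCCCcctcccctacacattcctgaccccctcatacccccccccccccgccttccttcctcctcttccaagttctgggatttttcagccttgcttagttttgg
Sgk1 downstream start, chr10:21994416-21994665, plus strand: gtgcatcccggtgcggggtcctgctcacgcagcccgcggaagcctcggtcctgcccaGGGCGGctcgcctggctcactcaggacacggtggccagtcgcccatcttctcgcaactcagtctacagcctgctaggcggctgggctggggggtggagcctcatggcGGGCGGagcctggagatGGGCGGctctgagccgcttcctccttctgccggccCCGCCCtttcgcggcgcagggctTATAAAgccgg
The upstream window had a TATA box beginning 28 bases before the start and a receptor element beginning 13 bases before it. The middle window held the whole palindrome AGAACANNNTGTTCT, whose arms are also counted as receptor elements, beginning 189 bases before its start, with another receptor element at 242 bases and a GC box at 104 bases. This palindrome was found in 3 of the 32851 windows (0.00913%), and in 1 of the 10 windows of these genes. An exact match of the window to mm9 placed it at chr10:21713507-21713521, 965 bases before the downstream first exon and 1478 bases after the first base of the upstream one. The downstream window held 4 GC boxes and a TATA box beginning 11 bases before the start. A match describes letters only and shows no binding.

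With cDNA fragmentation 22484041 reads of small intestine and 24798934 of colon had a unique placement, and with ribosomal RNA depletion 2035386 and 3478387. These were 29.0% and 29.8% of all reads with cDNA fragmentation, and 5.59% and 9.28% with ribosomal RNA depletion. Levels are given as RPKM, the reads on the exon blocks of a gene scaled to the summed kilobases of these blocks and to the uniquely placed reads of the library, and their 95% intervals are exact Poisson intervals, which cover counting error only. The markers went with the tissue labels, since all 5 absorptive markers of small intestine (Fabp2, Lct, Sis, Alpi, Apoa4) were at least 3-fold higher in small intestine and all 4 colon markers found (Car1, Slc26a3, Aqp8, Car4) at least 3-fold higher in colon, in both protocols. The distal Hox genes Hoxa13, Hoxd13 and Hoxb13 had 0 or 1 read in each small intestine library. The 3 kidney tubule genes, Umod, Slc12a1 and Aqp2, had 0 or 1 read in every library. Other cell types moved with the tissue or the library. The summed RPKM of 6 smooth muscle genes was 304 in small intestine and 1269 in colon with cDNA fragmentation, and 238 and 2412 with ribosomal RNA depletion, higher in colon for 6 of 6 genes in both. The 3 adipocyte genes summed to 61.6 and 239, and to 19.4 and 64.1. Pancreatic acinar genes (4 of 5 detected, Amy2a5 at 0 reads) summed to 436 in the cDNA fragmented colon library and 2216 in small intestine after ribosomal RNA depletion, against 0.150 and 5.37 in the other two. Each protocol thus compares a library rich in acinar transcripts with one that has few. Epcam, an epithelial adhesion gene, was at 737 and 471 RPKM in small intestine and colon with cDNA fragmentation and at 583 and 530 with ribosomal RNA depletion. The 7 epithelial genes summed to 9651 and 4373 RPKM, and to 3833 and 3876, but Krt20 alone gave 7525 and 2503 RPKM of the first pair, and 3 and 2 of the 7 genes were higher in colon. The 3 leukocyte genes summed to 47.4 and 15.9, and to 24.0 and 17.8. The 3 genes of enteric neurons and glia summed to 4.99 and 10.0, and to 2.09 and 7.44. The 3 endothelial genes summed to 14.1 and 15, and to 11.2 and 18.9. The part of any of these in the results was not tested, and in whole tissue fewer cells of a type and less RNA per cell cannot be told apart.

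A gene counted as 3-fold higher in a tissue when its RPKM there, divided by the RPKM of the other tissue plus 1, was at least 3. With cDNA fragmentation 3 of the 8 genes (Scnn1b, Hsd11b2 and Atp12a) were 3-fold higher in colon, against 2.53% of all 20791 genes, and 0 were 3-fold higher in small intestine, against 2.16%. With ribosomal RNA depletion 5 were 3-fold higher in colon (Scnn1a, Scnn1b, Nr3c2, Hsd11b2 and Atp12a), against 4.82% of all genes, and 1, Sgk1, in small intestine, against 2.79%. Scnn1b, Hsd11b2 and Atp12a passed in both protocols. Genes with few reads can hardly pass the rule. Among genes with at least 20 reads in the pair, which include all 8, 3.71% and 7.91% were 3-fold higher in colon. In small intestine these shares were 3.17% and 4.42%. With cDNA fragmentation Scnn1b no longer passed with median-of-ratios scaling or with reads on the strand of the gene only. The strand setting kept 117 of its 204 colon reads, because cDNA fragmented reads lie on both strands. It thus lowers RPKM in these libraries by design, and the loss of Scnn1b there is no test of its call. With ribosomal RNA depletion Nr3c2 no longer passed with median-of-ratios scaling, with start points in place of reads or over the last 1000 exonic bases, and Sgk1 not with start points. Over all genes the split depended on the scaling: with cDNA fragmentation 526 were higher in colon and 449 in small intestine, against 346 and 585 with median-of-ratios scaling and 1346 and 287 when scaled to Epcam. With ribosomal RNA depletion the split was 1003 and 581, against 648 and 780 with median-of-ratios scaling. Without the added 1 RPKM, 6 of the 8 genes were higher in colon in both protocols, and Sgk1 and Atp1b1 were higher in small intestine in both. The median log2 ratio of the 8 genes was 3.78 with cDNA fragmentation and 2.74 with ribosomal RNA depletion. In it the 2 genes per protocol at 0 reads in small intestine stand at their lower bound. With cDNA fragmentation the median falls in the gap between Scnn1a at 4.53-fold and Hsd11b2 at 41.7-fold. On the log2(RPKM + 0.1) scale the median difference of the 8 genes was 3.21 and 3.63, and that of all genes 0.12 and 0. Over the 14175 and 11929 genes with at least 20 reads in the pair of libraries, the median log2 ratio was 0.37 and 0.40. Most of these genes were thus also higher in colon, though their exact share was not counted. The 6 of 8 is to be read beside that, not beside an even split.

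**Figure D1:**
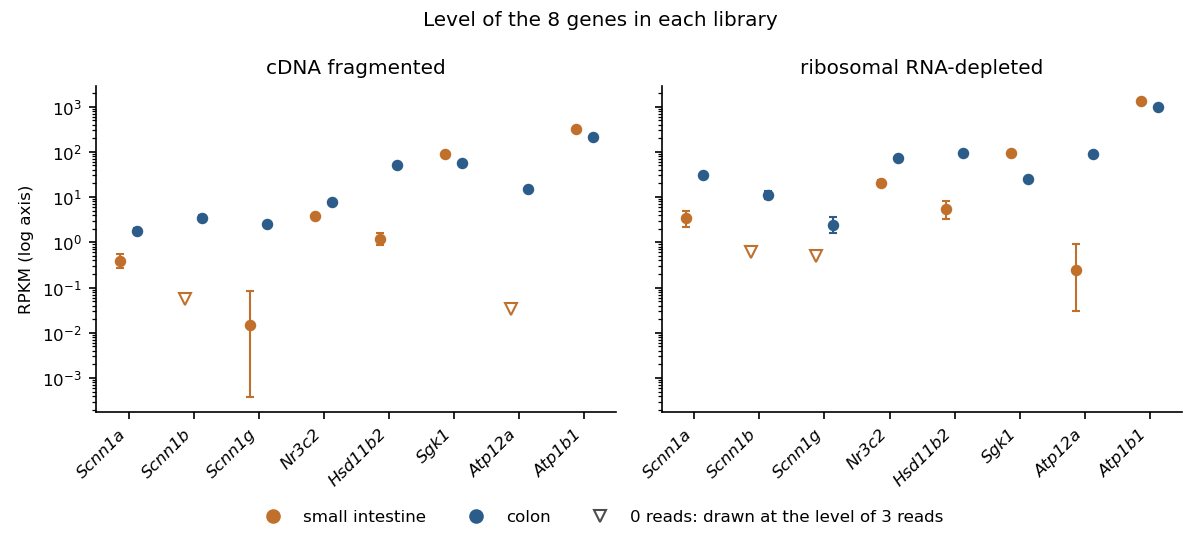
RPKM of the 8 genes in the small intestine and colon library of each protocol, on a log axis. Bars are exact 95% Poisson intervals, and an open triangle stands for 0 reads, drawn at the level that 3 reads would give. Scnn1b and Scnn1g had at most 1 read in either small intestine library, and Atp12a at most 2.

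The 3 subunits of the channel, alpha, beta and gamma, were unlike in small intestine. Scnn1b (chromosome 7 of mm9, 129008625 to 129062030) had 0 reads in both small intestine libraries, 204 reads in the cDNA fragmented colon library and 93 in the ribosomal RNA-depleted one. Its RPKM in colon was 3.41 (2.96 to 3.92) and 11.1 (8.96 to 13.6). Taking 3 reads as the limit that a count of 0 allows, Scnn1b was at least 61.7-fold higher in colon with cDNA fragmentation and at least 18.1-fold higher with ribosomal RNA depletion. These bounds, log2 5.95 and 4.18, ranged over the alternatives from 5.14 to 6.59 and from 2.23 to 4.35. The lowest came with reads on the strand of the gene only and over the last 1000 exonic bases. The first of these settings kept only 117 of the 204 cDNA fragmented colon reads, which lowers the bound.

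Scnn1g (chromosome 7, 128878021 to 128911991) had 1 and 0 reads in the small intestine libraries and 183 and 25 in the colon libraries. Its RPKM in colon was 2.49 and 2.42. The ratio of colon to small intestine was 166 (29.4 to 6589, exact conditional interval) with cDNA fragmentation, which rests on 1 read, and at least 4.88 with ribosomal RNA depletion. Over the last 1000 exonic bases Scnn1g had 0 reads in both small intestine libraries. The log2 values there, 4.38 and 0.81, are thus lower bounds against 3 reads. They stand beside a ratio of 7.37 on the 1 read and a bound of 2.29 over all blocks. Scnn1g did not reach the 3-fold rule in either protocol, since its level in colon is below 3 RPKM. It passed in both protocols with start points in place of reads or an added 0.1 RPKM, and with cDNA fragmentation when scaled to Epcam.

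Scnn1a (chromosome 6, 125271358 to 125294958), the subunit that the channel needs to conduct, was detected in all 4 libraries. With cDNA fragmentation it had 31 reads (0.394 RPKM) in small intestine and 155 (1.79 RPKM) in colon, a ratio of 4.53 (3.07 to 6.90). After ribosomal RNA depletion it had 24 reads (3.37 RPKM) and 374 (30.8 RPKM), a ratio of 9.12 (6.03 to 14.4). The alpha subunit was thus the only one of the 3 with more than 1 read in a small intestine library. With cDNA fragmentation the level of Scnn1a in colon was below 3 RPKM, so it could not reach the 3-fold rule there whatever its ratio. Over the alternatives the log2 ratio of Scnn1a ranged from 1.78 to 2.83 and from 2.69 to 3.63.

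Within colon the order of the subunits depended on the protocol. Per kilobase, with cDNA fragmentation, Scnn1b was highest at 3.41 RPKM, followed by Scnn1g at 2.49 and Scnn1a at 1.79, with intervals that do not overlap between Scnn1b and Scnn1g (2.14 to 2.88) or between Scnn1g and Scnn1a (1.52 to 2.09). With ribosomal RNA depletion Scnn1a was highest at 30.8 RPKM, followed by Scnn1b at 11.1 and Scnn1g at 2.42. Over the last 1000 exonic bases Scnn1b, Scnn1a and Scnn1g stood at 5.12, 4.76 and 2.78 RPKM with cDNA fragmentation, and at 6.90, 27.6 and 2.59 with ribosomal RNA depletion. Coverage of Scnn1a differed between the protocols, since 86.5% of its cDNA fragmented colon reads lay in the last of its 12 exon blocks, against 32.1% in the ribosomal RNA-depleted colon library.

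Some blocks of the ribosomal RNA-depleted libraries had many reads at few start points. Block 3 of Scnn1b held 41 of its 93 colon reads at 13 start points, and without this block the gene was at 6.98 RPKM in colon. Block 6 of Scnn1a held 46 of 374 reads at 12 start points, and without it the ratio of colon to small intestine was 8.0. More reads of Scnn1a lay in block 12 (120 reads at 65 start points) and block 1 (101 reads at 58 start points). Reads of Scnn1b were found in 12 of 13 blocks with cDNA fragmentation and 10 of 13 with ribosomal RNA depletion in colon, and those of Scnn1g in 12 and 7 of 13.

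**Figure D2:**
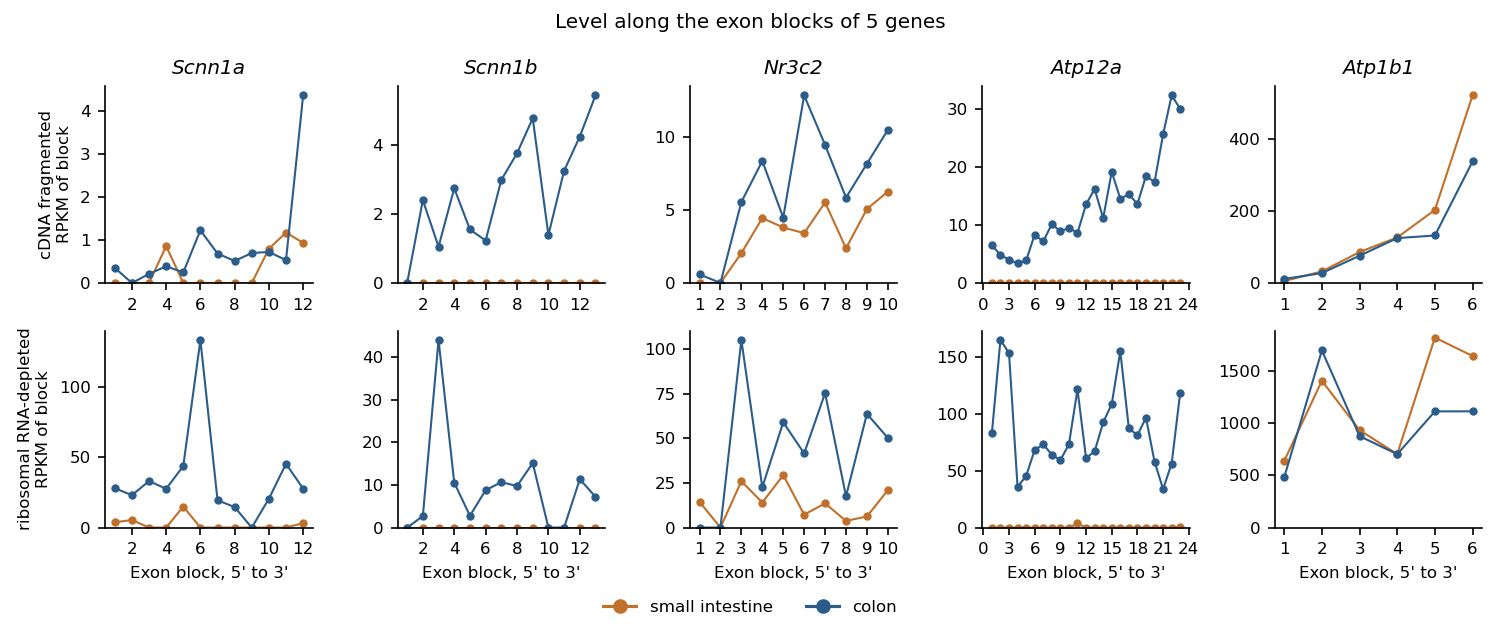
RPKM of each exon block, numbered 5′ to 3′, for Scnn1a, Scnn1b, Nr3c2, Atp12a and Atp1b1 in the cDNA fragmented libraries (top) and the ribosomal RNA-depleted libraries (bottom), with a separate linear axis for each panel. Reads of Atp12a covered all 23 blocks in both colon libraries. With cDNA fragmentation the last block was the highest of Scnn1a in colon only, and of Atp1b1 in both tissues.

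Nr3c2, the receptor of aldosterone (chromosome 8, 79424005 to 79767538), was expressed in both tissues and higher in colon. It had 352 reads (3.77 RPKM) in small intestine and 807 (7.83 RPKM) in colon with cDNA fragmentation, a ratio of 2.08 (1.83 to 2.36). In the ribosomal RNA-depleted pair it had 172 reads (20.3 RPKM) and 1029 (71.2 RPKM), a ratio of 3.50 (2.98 to 4.14). The intervals of both ratios do not overlap when reads are counted, but they do with start points in place of reads (log2 0.79 to 1.17 and 0.97 to 1.58), over the last 1000 exonic bases and when scaled to Epcam. All 8 blocks with at least 10 cDNA fragmented reads in the pair of libraries, and all 7 with at least 10 ribosomal RNA-depleted reads, were higher in colon. Block 1 of Nr3c2, which overlaps Gm10649, held at most 2 reads in any library.

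Hsd11b2, the enzyme that inactivates glucocorticoids (chromosome 8, 108042646 to 108047888), was low in small intestine and abundant in colon. Small intestine had 50 reads (1.20 RPKM) with cDNA fragmentation and 20 (5.31 RPKM) with ribosomal RNA depletion. Colon had 2302 reads (50.2 RPKM) and 600 (93.3 RPKM). The ratio was 41.7 (31.6 to 56.4) with cDNA fragmentation and 17.6 (11.3 to 28.9) with ribosomal RNA depletion. On the log2 scale these are 5.38 and 4.13, against 4.57 and 3.24 with start points in place of reads, and the second was 4.95 over the last 1000 exonic bases. Every block of Hsd11b2 with at least 10 reads was higher in colon, 4 of 4 and 5 of 5, at ratios from 5.07 upward. Per kilobase, in both colon libraries, Hsd11b2 exceeded Nr3c2, at 50.2 against 7.83 RPKM and 93.3 against 71.2 RPKM. In both small intestine libraries the order was the opposite, with Nr3c2 at 3.77 and 20.3 RPKM.

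Sgk1, the kinase (chromosome 10, 21601990 to 21719706), went the other way. With cDNA fragmentation it had 8078 reads (88.7 RPKM) in small intestine against 5549 (55.2 RPKM) in colon, a ratio of 0.623 (0.602 to 0.645). The ribosomal RNA-depleted pair gave 767 reads (93.0 RPKM) and 350 (24.8 RPKM) in colon, a ratio of 0.267 (0.235 to 0.303). None of its 13 blocks with at least 10 cDNA fragmented reads, nor of its 11 such blocks with ribosomal RNA depletion, was higher in colon. With start points in place of reads the log2 ratios of Sgk1 went from -0.68 to -0.42 and from -1.90 to -1.44. Scaled to Epcam, the cDNA fragmented log2 ratio of Sgk1 went from -0.68 to -0.04 (-0.09 to 0.01), an interval that includes 0. Epcam was itself lower in colon there, whereas 3 of the 7 listed epithelial genes were higher, and scaling to those was not run.

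The alternative first exons of Sgk1 took unlike shares of the reads in the tissues. The upstream first exon (chr10:21712029-21712213 of mm9) had 65 reads in the cDNA fragmented small intestine library, at 53 start points, against 5 reads in colon, at 4. The downstream first exon (chr10:21714472-21714631) had 80 reads, at 46 start points, and 60 reads, at 39. Of the reads on either exon, the upstream one thus held 44.8% (36.6% to 53.3%, exact Clopper-Pearson interval) in small intestine and 7.69% (2.54% to 17.0%) in colon. The ribosomal RNA-depleted libraries had 5 and 0 reads on the upstream exon and 1 and 2 on the downstream exon, too few for a comparison. The middle first exon, whose window holds the palindrome, had 1 read over the 4 libraries. These exons were picked after their reads were seen, as the pair with at least 5 reads in some library, and reads on both are few beside the 7933 and 5484 cDNA fragmented reads on the rest of Sgk1.

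**Figure D3:**
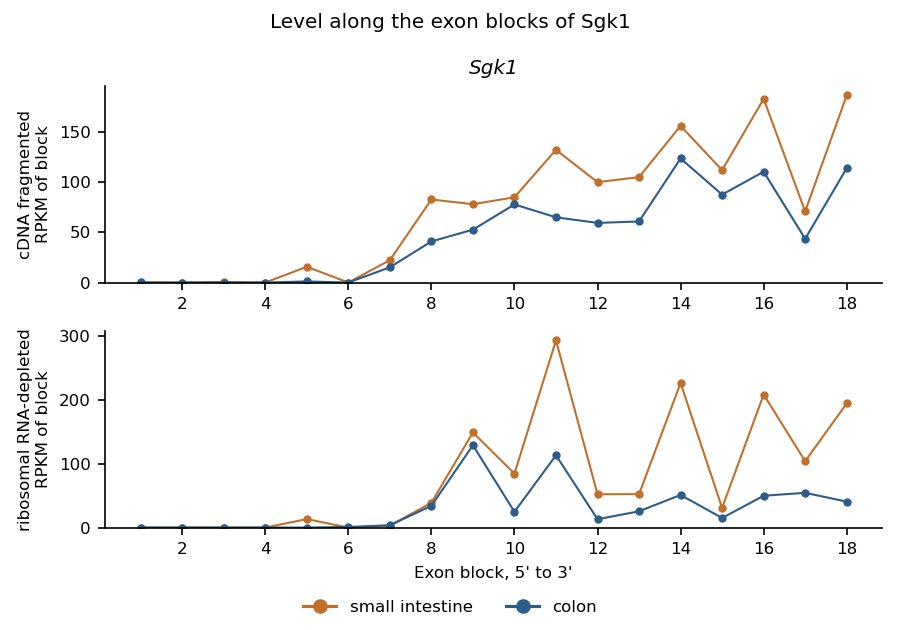
RPKM of the 18 exon blocks of Sgk1, numbered 5′ to 3′, in the cDNA fragmented libraries (top) and the ribosomal RNA-depleted libraries (bottom). Block 5 is the upstream first exon, with 65 cDNA fragmented reads in small intestine and 5 in colon, block 7 is the downstream one, and from block 8 on small intestine lay above colon in every block.

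Atp12a, the proton pump (chromosome 14, 56983905 to 57007388), was nearly without reads in small intestine. It had 0 reads in the cDNA fragmented small intestine library and 1468 (15 RPKM, 14.2 to 15.8) in colon, at least 444-fold higher. With ribosomal RNA depletion it had 2 reads (0.249 RPKM) in small intestine and 1207 (87.8 RPKM, 82.9 to 92.9) in colon, a ratio of 353 (97.5 to 2919) that rests on the 2 reads. Reads lay in all 23 exon blocks in both colon libraries, with at least 6 reads in each block with cDNA fragmentation and at least 12 with ribosomal RNA depletion. Of the 1207 ribosomal RNA-depleted colon reads, 1207 lay on the strand of the gene. Over the alternatives the log2 bound of Atp12a with cDNA fragmentation ranged from 7.70 to 9.44 and its log2 ratio with ribosomal RNA depletion from 7.21 to 8.93. Atp4a, the gastric proton pump, was far lower, with 6 cDNA fragmented reads in small intestine against 27 in colon (ratio 4.08, 1.65 to 12.1) and 0 and 2 with ribosomal RNA depletion. Its beta subunit Atp4b had 0 reads in all 4 libraries.

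Atp1b1 (chromosome 1, 166367147 to 166388486, minus strand) was the most abundant of the 8 genes in every library. With cDNA fragmentation 19176 reads (319 RPKM) came from small intestine and 14105 (213 RPKM) from colon, and 7108 (1306 RPKM) and 8912 (959 RPKM) with ribosomal RNA depletion. The ratios were 0.667 (0.653 to 0.682) and 0.734 (0.711 to 0.757), lower in colon in both protocols by less than 2-fold. Counting start points in place of reads took the log2 ratios from -0.58 to -0.28 and from -0.45 to -0.60. The direction in the cDNA fragmented libraries turned when levels were scaled to Epcam, to 0.06 on the log2 scale, and that in the ribosomal RNA-depleted libraries stayed at -0.31. Of the 7 epithelial genes, 3 were higher in colon with cDNA fragmentation, unlike Epcam, and no scaling to these was run. The blocks differed in direction. The first block of Atp1b1 had 71 cDNA fragmented reads in small intestine against 164 in colon, a ratio of 2.09, while the last block, which held 90.2% of the colon reads, had 17805 and 12717. In the ribosomal RNA-depleted pair the first block had the opposite direction, with 773 and 999 reads and a ratio of 0.756 (0.688 to 0.832). There 5 of its 6 blocks were lower in colon.

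**Figure D4:**
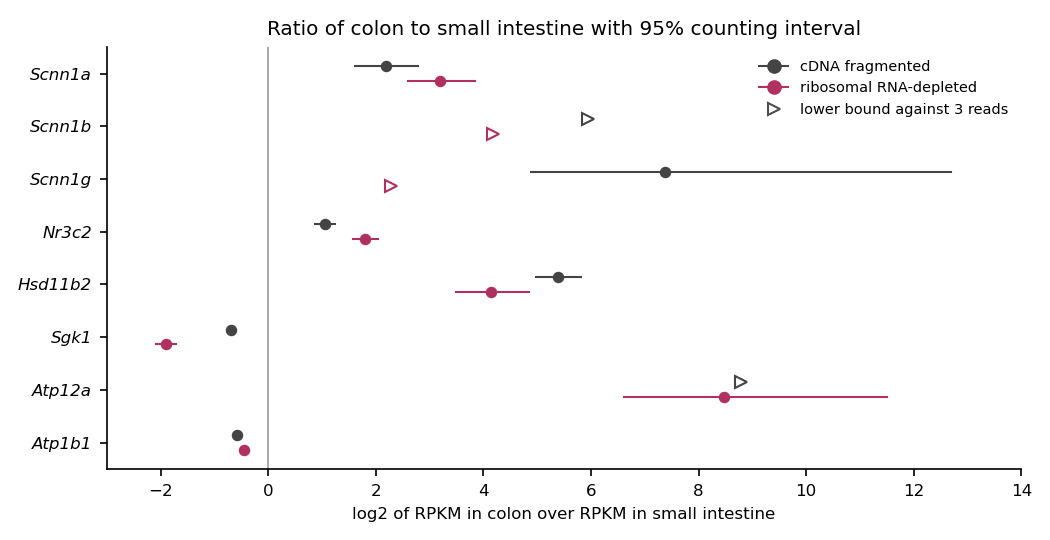
Log2 of the ratio of RPKM in colon to RPKM in small intestine for the 8 genes in each protocol. Lines are exact conditional 95% intervals of the read counts, and open triangles are lower bounds for genes with 0 reads in small intestine. Sgk1 and Atp1b1 lie left of 0 in both protocols and the other 6 genes right of it.

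To set the tissue difference against the disagreement of the protocols, limma was fitted across the 14652 genes with at least 20 reads over the 4 libraries, with the protocol as a block. Genes with a Benjamini-Hochberg adjusted p below 0.05 numbered 1480 higher in colon (10.1%) and 698 higher in small intestine (4.76%). Of the 8 genes, 6 rose in colon and 1, Sgk1, fell. Atp12a rose by 7.39 ± 0.51 (log2 CPM + 0.5 scale, SE; limma adjusted p = 6.11e-14). Scnn1b rose by 4.95 ± 0.63, Hsd11b2 by 4.58 ± 0.45 and Scnn1g by 3.90 ± 0.64. Scnn1a rose by 2.49 ± 0.52 (limma adjusted p = 0.000528) and Nr3c2 by 1.42 ± 0.41 (limma adjusted p = 0.0136). Sgk1 fell by 1.29 ± 0.42 (limma adjusted p = 0.0320), and Atp1b1 had -0.52 ± 0.50 (limma adjusted p = 0.542). The median of the 8 genes was 3.19 and that of all genes tested 0.36. The spread in this fit has 1 residual degree of freedom beside 34.9 borrowed from all genes, and it cannot measure variation between mice within a protocol. With no filter on low reads 0 of 8 were called, and 0 with no protocol block. With reads of at most 1 mismatch only Scnn1g, Hsd11b2 and Atp12a of the 8 were called, and Scnn1a (limma adjusted p = 0.156), Scnn1b (0.0506), Nr3c2 (0.148) and Sgk1 (0.208) were not. Nr3c2 was also lost with median-of-ratios scaling, and Sgk1 with start points, a pseudocount of 0.1 CPM and Epcam scaling. With median-of-ratios scaling limma called 808 genes higher in colon and 879 higher in small intestine, and with Epcam scaling 1754 and 396.

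Of the 51 other genes of the pathway, 5 were at least 3-fold higher in colon in both protocols and 1 in small intestine, against 336 and 306 of all 20791 genes. With limma 9 of the 46 tested rose in colon, against 10.1% of all genes tested, and 2 fell, against 4.76%. Of 8 proteases that cleave the channel and their inhibitors, Prss8, Serpine2, Spint2 and Tmprss2 rose (4 of 8, against 10.1% of all genes tested) and 0 fell (against 4.76%). Prss8, the channel-activating protease prostasin, was at 11.3 RPKM in small intestine and 41.0 in colon with cDNA fragmentation, and at 5.43 and 30.8 with ribosomal RNA depletion. Of its exon blocks 1 is shared with another gene. Tmprss2, a membrane serine protease, was at 72.6 and 277 RPKM, and at 50.5 and 222.

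Among 15 regulators of channel turnover and aldosterone-induced genes, 2 rose, Ndrg2 and Wnk4, a share near the 10.1% of all genes tested, and 0 fell, against 4.76%. Ndrg2 was at 16.3 and 79.3 RPKM with cDNA fragmentation and at 9.57 and 69.8 with ribosomal RNA depletion. Nedd4l, the ubiquitin ligase that removes the channel from the membrane, was at 2.52 and 4.29 RPKM, and at 7.52 and 9.90 (limma adjusted p = 0.382). A further list of 8 genes held the glucocorticoid receptor, genes of steroid metabolism and others that are neither. Of these 8, 0 passed the test as higher in colon, against 10.1% of all genes tested, and 1 passed as lower, against 4.76%. This was Ace, the angiotensin-converting enzyme of the brush border, which fell from 15.6 to 0.595 RPKM in colon with cDNA fragmentation and from 355 to 23.4 with ribosomal RNA depletion. Of its exon blocks 2 are shared with other genes. Nr3c1, the glucocorticoid receptor, was at 23.4 and 11.4 RPKM, and at 48.9 and 41.6 (limma adjusted p = 0.324), and so exceeded Nr3c2 per kilobase in both small intestine libraries and in the cDNA fragmented colon library, but not in the ribosomal RNA-depleted one, where Nr3c2 was at 71.2.

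Of 15 pump subunits and FXYD proteins, small regulators of the sodium pump, 12 were tested and 3 rose, Fxyd3, Fxyd4 and Fxyd6, against 10.1% of all genes tested, and 0 fell, against 4.76%. Fxyd4, also known as the corticosteroid hormone-induced factor, had 0 reads in both small intestine libraries and 921 and 27 in the colon libraries, at least 278-fold and at least 5.27-fold higher. Fxyd3 was at 12.5 and 48.0 RPKM with cDNA fragmentation, and at 3.28 and 24.0 with ribosomal RNA depletion, the last pair on 2 and 25 reads. Of the 5 listed relatives of the channel, 3 were tested, 0 rose, against 10.1%, and 1, Accn5, fell, against 4.76%, from 96 to 9 cDNA fragmented reads.

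**Figure D5:**
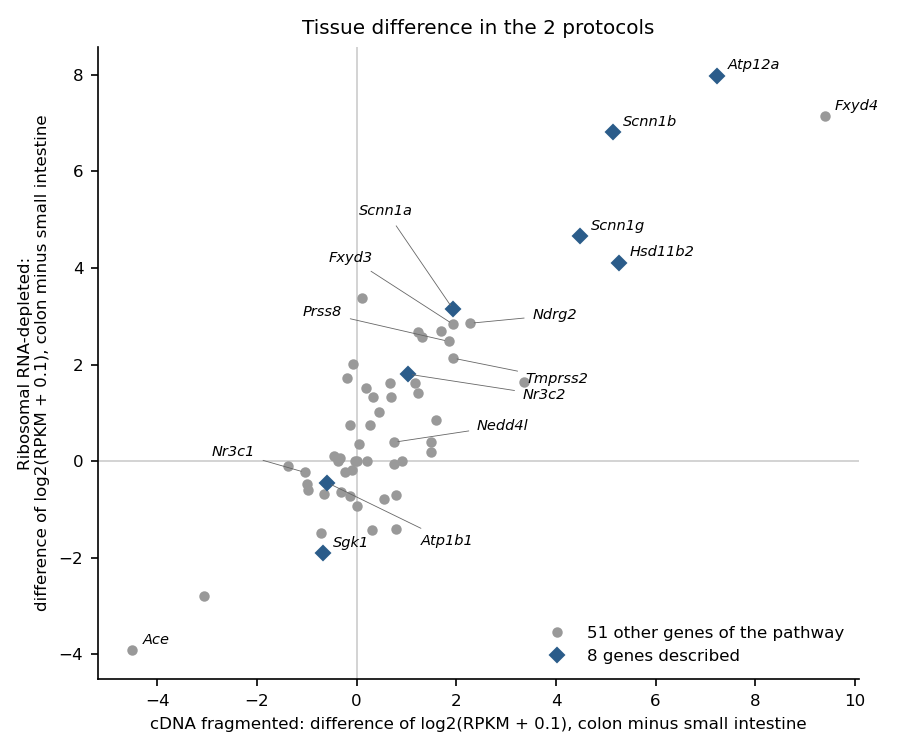
Difference of log2(RPKM + 0.1), colon minus small intestine, in the cDNA fragmented libraries (horizontal) and the ribosomal RNA-depleted libraries (vertical) for the 8 genes (diamonds) and 51 other genes of the pathway (circles). Named circles are the genes 3-fold different in both protocols, with Nr3c1 and Nedd4l. Fxyd4 lies beside Atp12a, Scnn1b, Scnn1g and Hsd11b2 at the upper right, and Ace lies farthest to the lower left.

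Genes with a pattern over the libraries most like that of Scnn1b, Scnn1g and Atp12a were looked for. The search took 13917 genes with at least 20 reads in some library. Its measure was the Euclidean distance between log2(RPKM + 0.1) values centred over the 4 libraries. Nearest to Scnn1b were Fut2 (distance 0.353), a fucosyltransferase, Best2 (0.480), an anion channel, and Igfbp2 (0.550). Best2 and Igfbp2 had 0 reads in both small intestine libraries, and Fut2 had 46 and 3. Nearest to Scnn1g were Slc17a9 (0.225), Ckmt2 (0.329) and Hsd3b3 (0.423). Slc17a9 had 164 and 11 reads in small intestine and Hsd3b3 had 168 and 18, and their levels in colon (78.0 and 64.6 RPKM for Slc17a9) were far above those of Scnn1g. Nearest to Atp12a were Tgm3 (0.796), a transglutaminase, Insl5 (0.900), a hormone of colonic enteroendocrine cells, and Fa2h (0.948). The likeness rests on 4 libraries and 1 library per tissue and protocol. The added 0.1 RPKM sets the distance among genes at 0 reads and shrinks large ratios of genes with low levels. With it the cDNA fragmented log2 difference of Scnn1g was 4.49, against a log2 ratio of 7.37 without it.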

How the data were processed

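RNA was extracted from small intestine and colon, and 4 SOLiD libraries were made, 1 per tissue and protocol. Per the file headers, the authors matched reads of 35 colours with the Corona pipeline to a reference of merged RefSeq exons and exon junctions of mm9, with at most 3 mismatches, and deposited the placements; these files hold no counts per gene. The authors deposited match positions with a strand and a mismatch number for each read, and exon tables, all neither normalized nor scored. The labels call the second protocol ribosomal RNA depleted, while the study's text names polyadenylated RNA; the label is used here. The read totals of the ribosomal RNA-depleted libraries also differ from those the study gives for its RNA fragmented libraries, so whether these are the same libraries is not known.

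Reads with a unique placement on 198576 exon blocks were summed to 20791 genes named by exon overlap in GENCODE M1 (mm9), on both strands; the share on the strand of the gene was 48.2% to 48.3% with cDNA fragmentation and 98.5% with ribosomal RNA depletion. RPKM, 3-fold calls (added 1 RPKM, the study's rule), exact Poisson and conditional intervals (95%) and bounds (3 reads for a count of 0) followed with Python 3.11.15, numpy 2.4.6 and scipy 1.17.1. SOLiD reads carry no molecular identifiers, so copies of the same molecule cannot be told apart, and intervals cover the counting error of reads only. The test of tissue with protocol as a block had been planned with a count model. The deposited files hold placements and no count column; no count model was run on the reads summed here, and limma 3.58.1 (R 4.3.3, mean trend) on log2(CPM + 0.5) was used. The limma fit, the 3-fold rule (there on CPM and toward colon only) and the conditional intervals were tried on simulated counts with the same tissue effect in both protocols. This cannot show how the fit behaves for genes whose tissue effect differs between the protocols. The counting of reads was not tried in this way. No column of per-sample values was left unused.

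Of 51 listed pathway genes those 3-fold different in the same direction in both protocols were named, with Nr3c1, Nedd4l and 1 further gene, which is not reported here, in any case. Serpine2, Spint2, Wnk4, Fxyd6 and Accn5, called by limma, and Atp4a and Atp4b fall outside this rule and were named after their values were seen; likeness was computed for Scnn1b, Scnn1g and Atp12a. The members, lists and tests were chosen with earlier results of these data known. The samples are single libraries, and the test measures the spread between protocols. It cannot tell differences between mice apart from those between protocols. Alternatives were another scaling, fewer mismatches, start points, another penalty, 1 strand, the 3′ 1000 bases, thinning and filters.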

Additional observations from a re-analysis of the deposited data

How the results depend on the processing

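The libraries carry no replicate numbers, so tissues were paired by protocol only, and no library could be left out, since each tissue has 1 per protocol. Under 8 alternatives, with 64 ratios of colon to small intestine in each protocol, 1 ratio with cDNA fragmentation and 0 with ribosomal RNA depletion changed direction, and 27 and 19 kept it but moved beyond their counting interval or, for lower bounds, by over 0.3 on the log2 scale. The ratio that turned was the log2 ratio of Atp1b1, which went from -0.58 to 0.061 when scaled to Epcam, an alternative chosen, like junction reads, the smaller pseudocount and voom weights, after seeing the data. Median-of-ratios scaling shifted all log2 ratios by -0.40 with cDNA fragmentation and -0.34 with ribosomal RNA depletion, and Epcam by 0.65 and 0.14. An added 0.1 instead of 1 RPKM gave 5 genes at least 3-fold higher in colon with cDNA fragmentation, and start points gave 0 higher in small intestine with ribosomal RNA depletion; the other 3-fold counts of the 8 genes stayed within 1.5 times, although members changed, since Scnn1b was lost with cDNA fragmentation (median of ratios, strand of the gene only) and Nr3c2 with ribosomal RNA depletion (median of ratios, start points, last 1000 bases). The strand setting drops cDNA fragmented reads of the other strand, which lowers RPKM there. Scnn1g was gained with start points and the added 0.1 RPKM in both protocols and with Epcam with cDNA fragmentation, and Scnn1a with the added 0.1 RPKM with cDNA fragmentation. Over all genes the added 0.1 RPKM gave 1379 and 700 higher in colon and in small intestine with cDNA fragmentation, and 2601 and 1209 with ribosomal RNA depletion. Of 8 genes limma called 0 without the filter (0 of 20791 genes called, 2571 at an unadjusted p below 0.05), 0 without the protocol block (0 of 14652, 845 at an unadjusted p below 0.05) and 3 at most 1 mismatch (265 genes called, against 2178, with Scnn1a, Scnn1b, Nr3c2 and Sgk1 lost); the cause was not tested. It called 6 or 7 under the other 6 settings, where Nr3c2 was lost with median of ratios (adjusted p = 0.0894) and Sgk1 with start points (0.0998), a pseudocount of 0.1 CPM (0.0604) and Epcam (0.175). Tests by edgeR and DESeq2 were not run. Depth limits the ribosomal RNA-depleted small intestine library most: 3 reads there equal 0.355 to 0.797 RPKM over the 8 genes.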
